A study of Mus musculus with 6 samples.

Results

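The EGF family ligands and their ERBB receptors were followed in prostate epithelial cancer cells of the mouse. Of 10 genes listed by name, 9 had a probe set annotated to no other gene: 6 ligand genes (Ereg, Hbegf, Btc, Tgfa, Egf and Nrg1) and 3 receptor genes (Egfr, Erbb2 and Erbb3). They are 9 of 22180 genes tested. Areg, the amphiregulin gene, was the tenth and was not analysed here.

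The study compared PIM1 cells, transduced with a lentivirus for the serine/threonine kinase PIM1 (3 arrays), with EV cells, transduced with the empty vector (3 arrays). Both groups came from Rb1F/F:Trp53F/F:PB-Cre4 mice, in which both tumour suppressor genes are floxed and Cre is driven by a probasin promoter active in prostate epithelium. Per the labels, cells of both groups grew with 2.5% charcoal-stripped serum, insulin, bovine pituitary extract, cholera toxin and 10 μg/mL of added epidermal growth factor, so an EGFR ligand was supplied to PIM1 and EV cells alike. The labels give no age, clone, species of the PIM1 insert or separate cultures behind the arrays, so a p-value here reflects array-to-array spread alone, and that spread may be technical.

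Ligands of this family are made as membrane-anchored precursors that surface proteases cut free. They bind receptor tyrosine kinases that act in pairs: EGFR takes up EGF, transforming growth factor alpha, amphiregulin, epiregulin, betacellulin, heparin-binding EGF and epigen, whereas the neuregulins bind ERBB3 and ERBB4. ERBB2 has no known ligand and serves as partner of the others, and the paired receptors signal to the RAS, ERK and PI3-kinase pathways. In the prostate the family is known as a growth signal of epithelium and of its tumours.

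Values are log2 signals from whole-transcript arrays, differences are PIM1 minus EV on that scale, and a gene was called at an adjusted p under 0.05 (limma, Benjamini-Hochberg over 22180 genes). The arrays of 1 group correlated at 0.994 to 0.997 within PIM1 and at 0.990 to 0.991 within EV, and arrays of different groups at 0.963 to 0.967. Over all genes 27.0% were called, 16.1% higher and 10.9% lower in PIM1, and for 43.2% the PIM1 and EV arrays were fully separated, 22.3% with PIM1 above and 20.9% with PIM1 below. The calls were 59.6% higher ones as deposited, 47.0% after quantile normalization and 73.5% after centring each array on its median over all probe sets. Brighter genes (the 11090 with the highest mean signal) were called more often: fitted alone, 3831 were higher and 2075 lower in PIM1. Most genes of the ligand release, turnover, adaptor, ERK and co-receptor lists below are in that set. In that set the median difference was 0.10, and more genes were called than not. The 27.0% of all genes is therefore a low mark for the shares called in those lists, and a share above it is not by itself an excess. Pim1 averaged 6.99 ± 0.11 in PIM1 cells and 5.58 ± 0.58 in EV cells (SD, n = 3 each), a difference of 1.41 (adjusted p = 0.00455). EV replicate 2 read 6.25, against 5.26 and 5.23 on the other EV arrays. A second, dimmer Pim1 probe set read 3.06, 3.32 and 2.61 in PIM1 cells and 2.05, 2.27 and 2.64 in EV cells, with overlap. Its difference of 0.68 was not called (adjusted p = 0.0933 in the fit of all probe sets). Of 7 measured markers of epithelium, 0 rose and 3 fell (Krt18, Cdh1 and Krt19), and their summed linear signal was 104.7 to 105.4 on the PIM1 arrays against 650 to 684 on the EV arrays. Krt18 made most of that gap: it differed by -4.24, and the other 6 markers summed to 72.3 to 77.3 in PIM1 and 94.2 to 114.6 in EV. Krt8, the keratin that pairs with it, differed by -0.08 and was not called. Epcam read 2.28 to 2.41 in PIM1 and 2.47 to 2.51 in EV, and the probasin gene Pbsn 1.32 to 1.79 in PIM1 and 1.61 to 2.02 in EV, under the median of each array (3.38 to 3.42 in PIM1 and 3.49 to 3.52 in EV). Of 4 measured luminal prostate markers, Pbsn among them, Hoxb13 rose by 0.58 and Fkbp5 fell by 0.36, with summed linear signals of 102.7 to 106.7 in PIM1 and 103.5 to 106.4 in EV. Of 12 fibroblast markers 10 rose and 1 fell, with summed linear signals of 11860 to 12400 in PIM1 and 2788 to 2844 in EV. Leukocyte, endothelial and smooth muscle lists had 0 of 7, 0 of 6 and 1 of 5 genes higher and 1, 0 and 1 lower. The part of these markers in the results below was not tested, and in bulk RNA fewer cells of a type and less RNA per cell cannot be told apart.

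Of the 9 measured members 5 passed the test, and they moved both ways. Nrg1 and Egfr rose in PIM1 cells, and Ereg, Hbegf and Erbb2 fell. That is 55.6% called, against 27.0% of all genes. All 5 are among the brighter genes, which were called more often, and the other members are not. The PIM1 and EV arrays were fully separated for 6 of the 9, 2 with PIM1 above (22.3% of all genes) and 4 with PIM1 below (20.9% of all genes). The median difference of the 9 members was -0.12 beside -0.05 for all genes tested. Btc, Tgfa, Egf and Erbb3 did not pass.

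**Figure D1:**
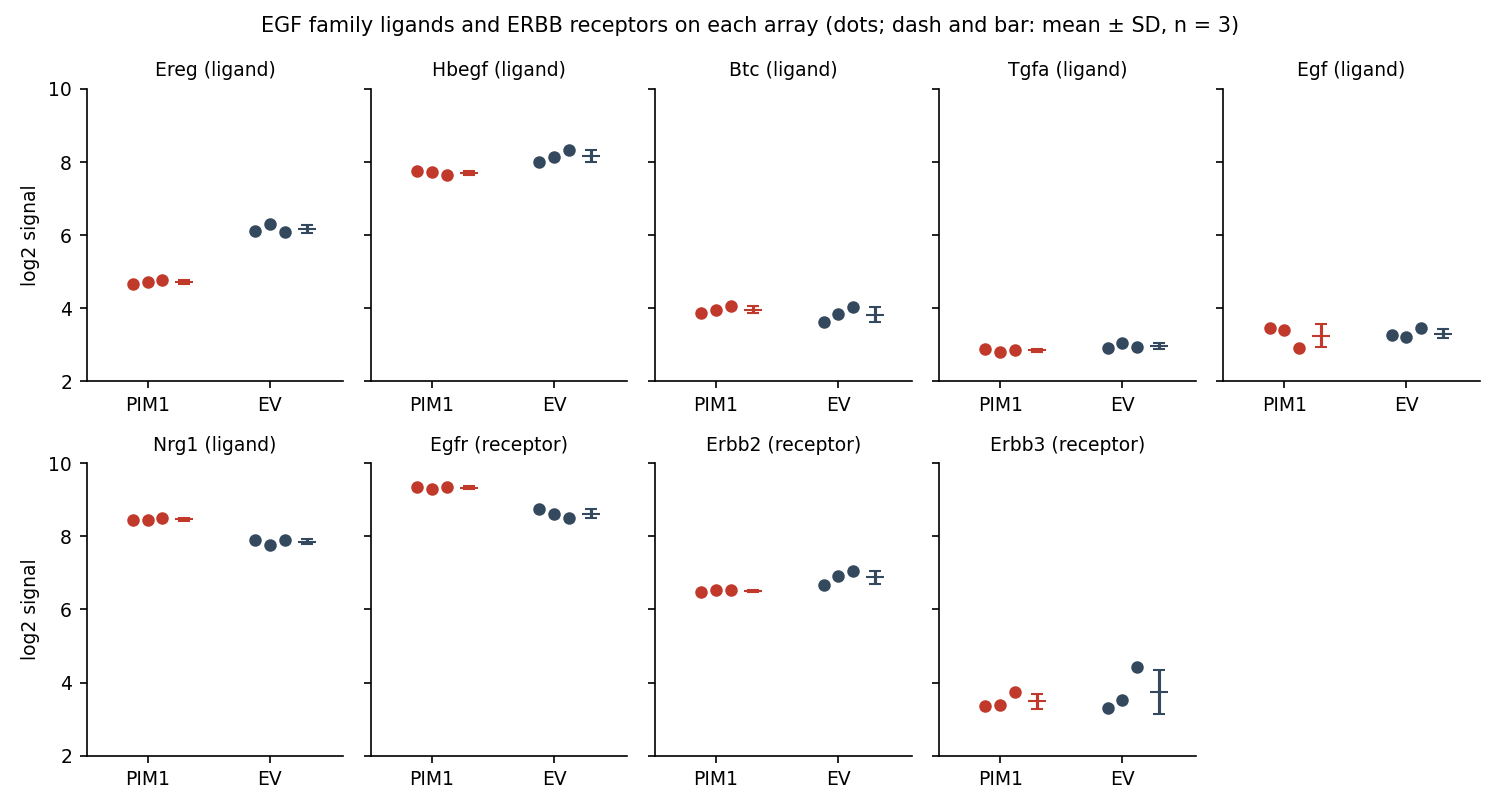
Log2 signal (vertical axis) of the 9 measured members on each of the 3 PIM1 arrays (red, left) and 3 EV arrays (dark, right), with mean ± SD beside the dots. The Ereg dots lie between 4.67 and 4.77 in PIM1 and between 6.08 and 6.29 in EV, and the Egfr and Nrg1 dots of PIM1 lie above all those of EV.

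Promoter windows are shown for the called receptor genes, one higher and one lower in PIM1, and for Epgn, the family member outside the listed genes that rose. RefSeq's table (GRCm38.p6) held a window for 6 of the 10 listed genes. Each is the 250 bases before the annotated start, 5′ to 3′, with capitals marking matches on either strand to GGGCGG (the GC box) or TATAAA (the TATA box).
Egfr, chr11:16751953-16752202, plus strand: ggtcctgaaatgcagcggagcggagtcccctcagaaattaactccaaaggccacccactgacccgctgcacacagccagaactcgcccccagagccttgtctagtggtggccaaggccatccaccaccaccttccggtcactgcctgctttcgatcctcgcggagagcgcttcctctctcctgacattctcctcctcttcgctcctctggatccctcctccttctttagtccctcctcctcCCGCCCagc
Erbb2, chr11:98412234-98412483, plus strand: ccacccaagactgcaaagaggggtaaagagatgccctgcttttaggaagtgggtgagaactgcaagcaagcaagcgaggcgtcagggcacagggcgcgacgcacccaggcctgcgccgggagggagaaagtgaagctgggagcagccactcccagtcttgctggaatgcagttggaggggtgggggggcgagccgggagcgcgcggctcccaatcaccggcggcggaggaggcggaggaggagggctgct
Epgn, chr5:91027267-91027516, plus strand: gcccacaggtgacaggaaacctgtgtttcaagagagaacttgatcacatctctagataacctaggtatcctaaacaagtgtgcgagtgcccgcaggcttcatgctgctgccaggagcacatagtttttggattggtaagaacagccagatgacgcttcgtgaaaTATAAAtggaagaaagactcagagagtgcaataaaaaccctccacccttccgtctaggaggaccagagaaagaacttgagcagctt
The Egfr window held 1 GC box, 0 TATA boxes and 60.8% G and C. The Erbb2 window held 0 matches to either motif at 66.0% G and C, and the Epgn window 1 TATA box at 46.8%. Among 32851 windows of the same length, 32.7% held a GC box and 12.4% a TATA box, and the median G and C content was 52.4%. TGANTCA, the AP-1 motif, is in 6.7% of all windows and in none of these 3. No match says only that these letters are not in the window.

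Ereg encodes epiregulin, a ligand of EGFR and ERBB4, and had the largest difference of the 9 members. It read 4.67, 4.71 and 4.77 on the PIM1 arrays, against 6.12, 6.29 and 6.08 on the EV arrays. All PIM1 arrays lay far below all EV arrays, and the spread within either group was small beside the gap. In limma's fit Ereg fell by 1.45 (standard error 0.102) with an adjusted p of 2.94e-05, a 2.73-fold lower signal. A second, dimmer Ereg probe set read 4.04, 4.09 and 3.92 in PIM1 cells and 4.67, 4.32 and 4.58 in EV cells. Its difference was -0.51, called at an adjusted p of 0.0404 in the fit of all probe sets, so the probe sets agreed in direction but not in size. The mean of both gave -0.98, and the size of the Ereg change therefore depends on which probes are read.

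Hbegf, the heparin-binding ligand of EGFR and ERBB4, was the other ligand gene that fell. Its signal was 7.76, 7.72 and 7.64 in PIM1 cells, against 8.01, 8.13 and 8.33 in EV cells. The groups did not overlap, with a gap of less than the EV range. Hbegf fell by 0.45 (95% interval -0.71 to -0.19, adjusted p = 0.0204). It did not pass without PIM1 replicate 1, 2 or 3 (adjusted p = 0.0536, 0.0650 and 0.0645), without EV replicate 3 (0.0539) or after centring over all probe sets (0.0577).

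Nrg1, the neuregulin gene whose products bind ERBB3 and ERBB4, was the one measured ligand among the listed genes that rose. It read 8.44, 8.44 and 8.50 on the PIM1 arrays, against 7.89, 7.77 and 7.90 on the EV arrays. Each group was tight and the PIM1 arrays lay above all EV arrays. The difference was 0.61 (standard error 0.094, adjusted p = 0.00205), a 1.52-fold higher signal. It passed in all 15 alternatives, with differences between 0.48 and 0.71. The gene makes many isoforms, which 1 probe set does not separate.

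The other ligand genes measured, Btc, Tgfa and Egf, were not called. Btc, which encodes betacellulin, read 3.88, 3.95 and 4.07 in PIM1 cells and 3.62, 3.84 and 4.02 in EV cells, with overlap between the groups. Its difference of 0.14 had a 95% interval of -0.15 to 0.43 (adjusted p = 0.464). Tgfa, the gene of transforming growth factor alpha, read 2.89, 2.80 and 2.85 in PIM1 cells and 2.90, 3.05 and 2.94 in EV cells. The Tgfa groups did not overlap, but by less than 0.01, and the interval of the difference was -0.34 to 0.10 (adjusted p = 0.407). Egf itself, the founding ligand, read 3.46, 3.40 and 2.90 in PIM1 cells and 3.27, 3.22 and 3.45 in EV cells. PIM1 replicate 3 was the lowest Egf value and set the wide PIM1 spread, and the interval was -0.43 to 0.31 (adjusted p = 0.834). Tgfa and Egf lay under or close to the array medians, where signals hold an unknown share of background, so a missing call does not show that PIM1 and EV cells were alike.

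Egfr, the receptor of epidermal growth factor and most of the ligands above, rose in PIM1 cells. Its signal was 9.36, 9.29 and 9.35 on the PIM1 arrays, against 8.75, 8.62 and 8.50 on the EV arrays. Every PIM1 array was above every EV array, and the EV arrays were more spread. The difference was 0.71 (95% interval 0.47 to 0.95, adjusted p = 0.00147), a 1.64-fold higher signal, and it passed in all 15 alternatives (0.58 to 0.81).

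Erbb2, the partner receptor without a ligand of its own, moved the other way. It read 6.47, 6.52 and 6.52 in PIM1 cells, against 6.67, 6.92 and 7.04 in EV cells. The PIM1 values were nearly equal and all lay below the EV values. Erbb2 fell by 0.37 (95% interval -0.64 to -0.10, adjusted p = 0.0490), just inside the threshold. The call was lost after centring on the median over the genes tested (adjusted p = 0.0659) or over all probe sets (0.150), and in the fit of all probe sets (0.0957). It was also lost without PIM1 replicate 1, 2 or 3 (0.139, 0.120 and 0.0997) or EV replicate 2 or 3 (0.109 and 0.129).

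Erbb3, a neuregulin receptor with a weak kinase, was not called. It read 3.35, 3.38 and 3.73 in PIM1 cells and 3.30, 3.51 and 4.42 in EV cells. EV replicate 3 stood above the other 5 arrays, and without it the Erbb3 difference was 0.08 in place of -0.26. The interval with all arrays was -0.88 to 0.37 (adjusted p = 0.529). Apart from EV replicate 3, Erbb3 lay close to the array medians, where background is an unknown share of the signal.

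Among the 5 other family members, 1 rose, 1 fell and 3 were not called. So 2 of 5 were called, near the 27.0% of all genes at this number. Epgn encodes epigen, a ligand of EGFR. It read 6.46, 6.45 and 6.89 on the PIM1 arrays, against 4.56, 5.24 and 5.00 on the EV arrays, with no overlap. Epgn rose by 1.66 (standard error 0.197, adjusted p = 5.02e-04), a 3.17-fold higher signal, and passed in all 15 alternatives. Nrg2, a second neuregulin gene, read 3.57, 3.43 and 3.56 in PIM1 cells, against 3.96, 3.83 and 4.12 in EV cells. It fell by 0.45 (adjusted p = 0.0193), at a low signal, and did not pass without PIM1 replicate 1 or 2 (0.0533 and 0.0792), without EV replicate 3 (0.0540) or after centring over all probe sets (0.0554). The neuregulin genes Nrg3 and Nrg4 differed by -0.33 and -0.19 (adjusted p = 0.0867 and 0.234). The neuregulin receptor gene Erbb4 read 1.88 to 2.27 in PIM1 cells and 1.85 to 2.63 in EV cells, with a difference of -0.07 (adjusted p = 0.841). Nrg3 and Erbb4 lay under the array medians, where background is an unknown share of the signal, so a missing call does not show that the groups were alike.

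**Figure D2:**
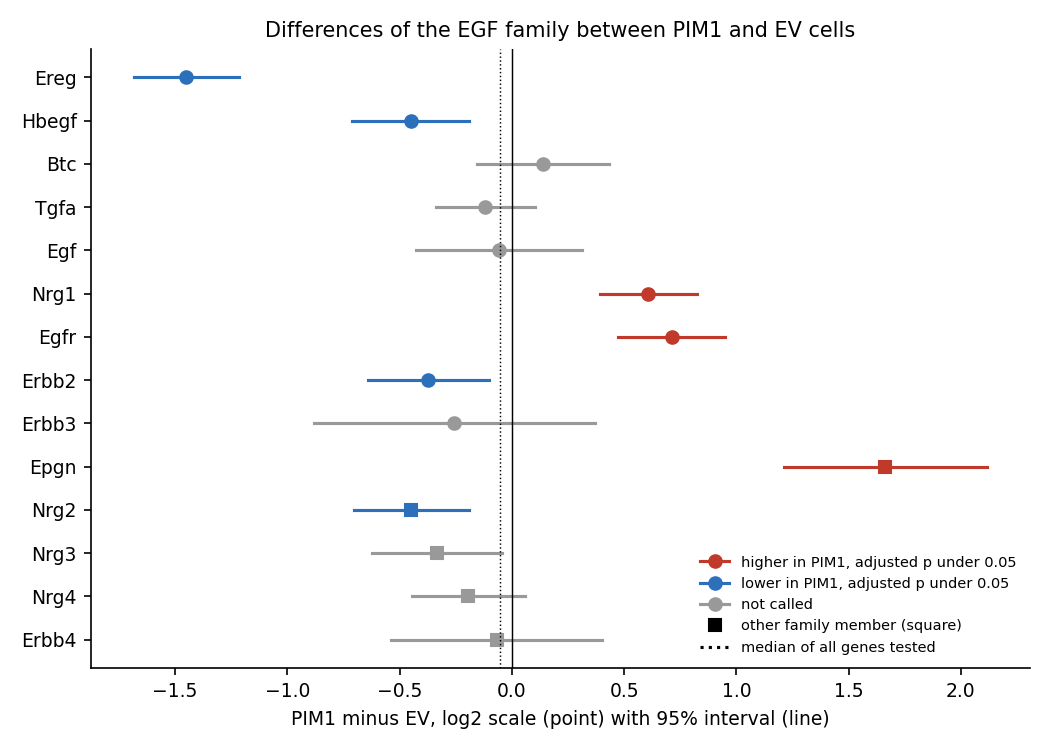
Differences PIM1 minus EV on the log2 scale (horizontal axis) with 95% intervals for the 9 members (circles) and 5 other family members (squares). Red marks genes higher and blue genes lower in PIM1 at an adjusted p under 0.05, grey those not called, and the dotted line the median of all genes tested (-0.05); Epgn at 1.66 and Ereg at -1.45 stand at the ends.

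Epgn, Ereg, Areg and Btc follow each other along mouse chromosome 5 in the RefSeq order of assembly GRCm38.p6, with no other protein-coding gene between them. Neighbouring ligand genes thus differed in direction: Epgn rose by 1.66, Ereg, next to it, fell by 1.45, and Btc differed by 0.14 and was not called. The gene before Epgn, Mthfd2l, which encodes a mitochondrial folate enzyme, rose by 1.04 (adjusted p = 5.20e-04). Before it comes a run of CXC chemokine genes, of which Cxcl5, Cxcl3, Cxcl15 and Cxcl1 differed by 5.78, 4.90, 5.73 and 4.28, whereas Cxcl2 and Pf4 were not called (-0.51 and -0.34). Ppbp, of the same run, rose by only 0.34 (adjusted p = 0.0459), and Rassf6, just before the run, rose by 2.56. On the far side of Btc, Parm1 was not called (0.13) and Rchy1 rose by 1.30. Ereg was thus the one called gene of the stretch in the plot that fell. These neighbours were chosen after their values were seen.

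**Figure D3:**
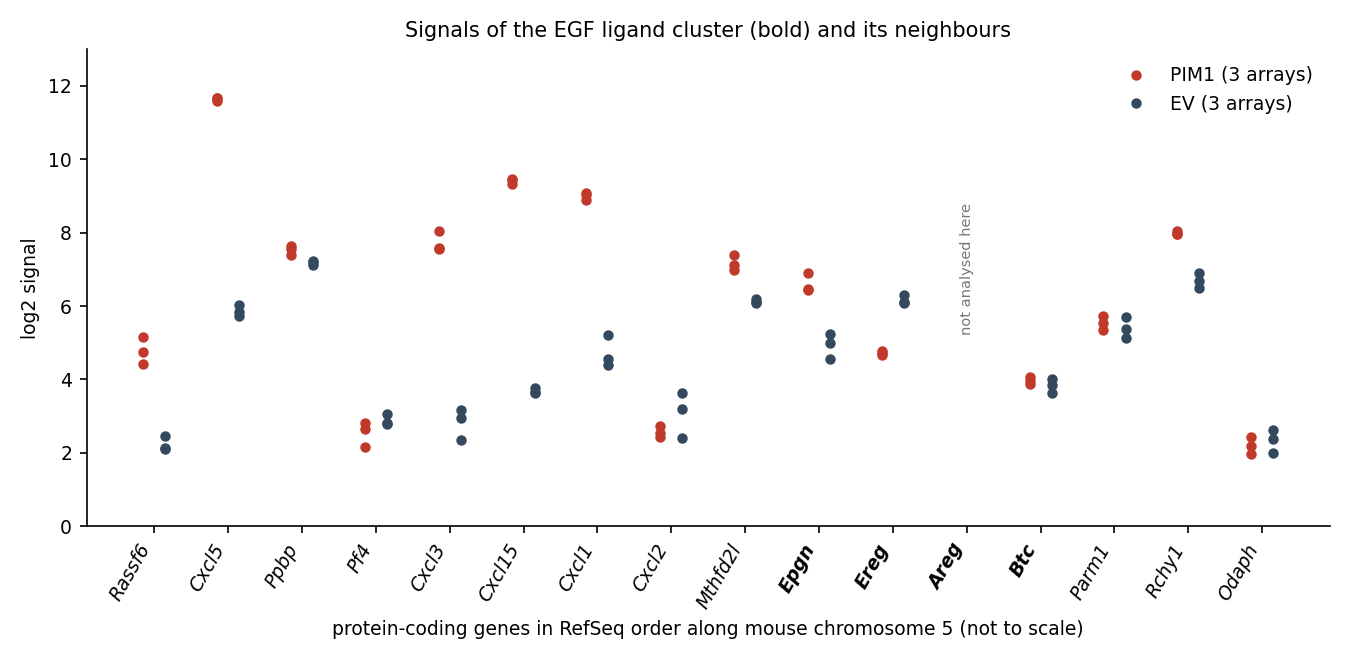
Log2 signal (vertical axis) on the 3 PIM1 arrays (red, left in each pair) and 3 EV arrays (dark) for protein-coding genes in their order along mouse chromosome 5, not to scale, with the EGF ligand genes in bold. Ereg has its PIM1 dots below its EV dots, Epgn next to it has them above, and the chemokine genes Cxcl5, Cxcl3, Cxcl15 and Cxcl1 show the widest gaps.

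The 5 genes whose pattern was most like that of Ereg over the 6 arrays were Tspan12, Zfp462, Hes1, Arap2 and Eif4a2, with Pearson correlations of 0.9988 to 0.9991. All were lower in PIM1, by 0.37 for Zfp462 to 2.11 for Hes1, Hes1 being a repressor induced by NOTCH. The arrays form separate groups, so these correlations mostly restate the gap between PIM1 and EV.

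Genes that govern the release of ligands moved both ways. Of 15 measured, 5 rose and 4 fell (9 called, against 27.0% of all genes), with a median difference of 0.13. Most are brighter genes, for which 27.0% is a low mark, and an excess over such genes was not tested. Adam17, the main sheddase of EGFR ligands, rose by 0.95 to 8.42 ± 0.11 in PIM1 cells, against 7.47 ± 0.09 in EV cells (adjusted p = 3.66e-04). Rhbdf2, an inactive rhomboid that carries ADAM17 to the surface, rose by 0.84 (adjusted p = 0.00839), whereas its relative Rhbdf1 fell by 0.78 (adjusted p = 0.00188). Timp3, which encodes an inhibitor of ADAM17, rose by 1.46 to 9.93 ± 0.05 in PIM1 cells, against 8.47 ± 0.05 in EV cells (adjusted p = 1.78e-05). The sheddase and its inhibitor were thus both higher. Adam12, a protease linked to release of heparin-binding EGF, fell by 1.61 (adjusted p = 1.82e-04). Adam10, the sheddase of EGF and betacellulin, differed by 0.13 and was not called (adjusted p = 0.381). Bace2, an aspartyl protease of the cell surface, fell by 0.62. The calls of Adam8, Adam9 and Bace1 depended on the setting. Adam8 (0.79) did not pass without PIM1 replicate 1, 2 or 3 or EV replicate 1 or 3 or in the fit of all probe sets (adjusted p = 0.0586 to 0.123). Adam9 (0.37) did not without PIM1 replicate 1 or 3 or EV replicate 3 (0.0542 to 0.0754). Bace1 (-0.37) did not pass without PIM1 replicate 1 or 2 or EV replicate 1 or 3 (0.0554 to 0.0934), nor in the fit of all probe sets (0.0533) or after centring over them (0.0822). The Bace1 difference was -0.10 when its probe sets were averaged (adjusted p = 0.469). After quantile normalization 3 genes of this list rose, without Adam8 and Adam9 (adjusted p = 0.0892 and 0.127).

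Of 16 receptor inhibitor and turnover genes 7 rose and 1 fell, with a median difference of 0.12. That is 50.0% called, against 27.0% of all genes (16.1% higher and 10.9% lower). More of the brighter genes, which hold most of this list, were called than not, so the share is no excess over them. Errfi1, a feedback inhibitor that binds the EGFR kinase, read 9.03, 8.98 and 9.05 in PIM1 cells, against 8.04, 8.12 and 8.07 in EV cells. It rose by 0.95 (adjusted p = 1.68e-04), and the arrays of either group lay within 0.1 of each other. Lrig1 and Lrig2, of a family of membrane proteins whose first member lowers ERBB receptor levels, rose by 0.75 and 0.74, and Lrig3 was not called (0.08). Rnf41, a ubiquitin ligase that lowers ERBB3, rose by 0.97, and Ptpn1, a phosphatase that acts on EGFR, by 1.16. Cbl, the ubiquitin ligase that marks EGFR for breakdown, fell by 0.41 (adjusted p = 0.0174) and did not pass without PIM1 replicate 1 or 2 (0.0737 and 0.0727). After quantile normalization 5 genes of this list were higher and 3 lower, and after centring over all probe sets 7 were higher and 0 lower.

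Adaptors and kinases below the receptors were called in 33.3% of 24 measured genes, against 27.0% of all genes. Of these, 3 rose and 5 fell. The median difference of -0.04 was close to that of all genes (-0.05) but under that of the brighter genes (0.10). The list was also called less often than the brighter genes, which hold most of it. Shc1, an adaptor of phosphorylated ERBB receptors, rose by 1.31 to 9.32 ± 0.08 in PIM1 cells, against 8.01 ± 0.04 in EV cells (adjusted p = 3.40e-05). Pik3r1, a regulatory subunit of PI3-kinase, rose by 0.87, and Map2k1, which encodes the kinase MEK1, by 0.44. Map2k1 did not pass without PIM1 replicate 2 (adjusted p = 0.0503) or after quantile normalization (0.0573). The catalytic subunit gene Pik3cb fell by 1.28, and the exchange factor genes Vav3, Sos1 and Sos2 by 1.53, 0.81 and 0.52. Src, a kinase that works with EGFR, fell by 0.45. Sos2 did not pass without PIM1 replicate 1 or 2 or EV replicate 2 or 3, in the fit of all probe sets or after centring over them (adjusted p = 0.0515 to 0.0891). Grb2, the adaptor between ERBB receptors and SOS, was not called (0.14), nor was Grb7, an adaptor of ERBB2 (0.07). After quantile normalization 8 genes of this list were lower.

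Genes known to respond to ERK were called in 60.9% of 23, against 27.0% of all genes (16.1% higher and 10.9% lower). There were 10 higher and 4 lower, with a median difference of 0.06. These are brighter genes too, so 27.0% is again a low mark, and an excess over genes of like brightness was not tested. The transcription factor genes Jun, Junb and Etv1 rose by 1.07, 1.25 and 1.17. Jun read 9.60 to 9.63 in PIM1 cells and 8.48 to 8.58 in EV cells. The early response gene Ier3 rose by 1.12 and Spred3, of a family of RAS inhibitors, by 1.12. In the other direction, Spry1, a feedback inhibitor of receptor tyrosine kinases, fell by 1.57 to 6.38 ± 0.06 in PIM1 cells, against 7.95 ± 0.15 in EV cells (adjusted p = 2.77e-05). The phosphatase genes Dusp5 and Dusp4 fell by 1.12 and 0.84, and Egr3, an early growth response factor, by 0.61. Relatives of these genes differed among themselves: Dusp6, an ERK phosphatase, rose by 0.65 and Spry4 by 0.72. Fos rose by 0.82 (adjusted p = 0.00365) and Egr1, a relative of Egr3, by 0.41 (0.0193). Egr1 did not pass without PIM1 replicate 1 or 2 or EV replicate 1 or 2 (0.0502 to 0.0778). Its call was also lost after quantile normalization (0.0927), after cyclic loess (0.0565) and with the replicate number as a block (0.0513). Spry2 and Egr2 were not called (0.06 and -0.06), nor were Spred1 and Spred2, relatives of Spred3 (-0.12 for both). The Dusp6 difference was 0.28 and not called when its probe sets were averaged (adjusted p = 0.181), and Dusp4 did not pass without any PIM1 replicate or without EV replicate 2 or 3 (0.0531 to 0.0677). Myc and Ccnd1 were not called (-0.07 for both). The 10 higher genes of this list became 8 after quantile normalization and 8 when probe sets were averaged.

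Of 8 co-receptor genes 2 rose and 2 fell (50.0% called, against 27.0% of all genes, a low mark for a list of mostly brighter genes). The heparan sulphate proteoglycan genes Sdc4 and Sdc1 rose by 0.96 and 0.49, whereas Gpc1, a glypican, fell by 1.10. Itga6, an integrin chain that partners ERBB2 in epithelium together with the beta-4 chain, fell by 2.10 to 6.82 ± 0.13 in PIM1 cells, against 8.92 ± 0.05 in EV cells (adjusted p = 4.86e-06). Itgb4, the gene of the beta-4 chain, read 3.49 to 3.82 in PIM1 cells and 3.81 to 3.96 in EV cells. Itgb4 lay a little above the array medians over all probe sets, but at percentile 46.7 of the genes tested by mean signal. Its difference of -0.23 was not called (adjusted p = 0.180). Cd9, a tetraspanin that binds the precursor of heparin-binding EGF, differed by -0.01 and was not called.

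**Figure D4:**
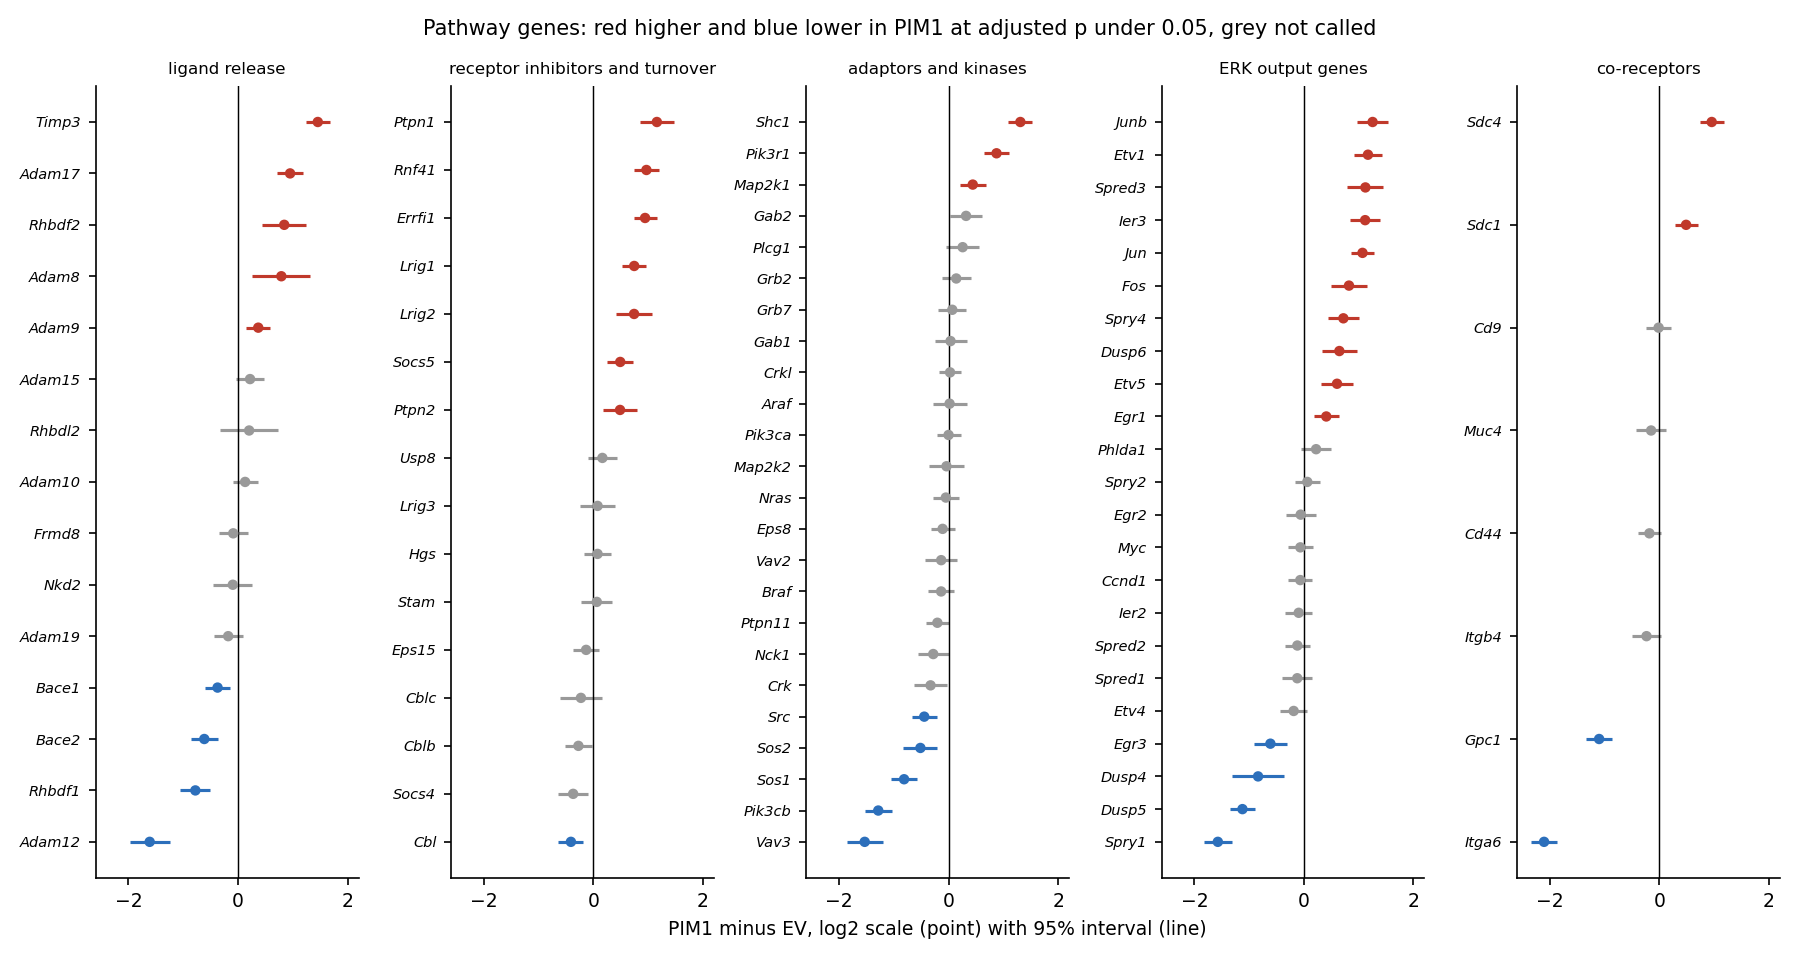
Differences PIM1 minus EV on the log2 scale (horizontal axes) with 95% intervals for the genes of 5 pathway lists, each list sorted by difference. Red and blue mark genes higher and lower in PIM1 at an adjusted p under 0.05; every list holds both, from Timp3 at 1.46 to Adam12 at -1.61 for ligand release and from Junb at 1.25 to Spry1 at -1.57 for ERK output genes.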

How the data were processed

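RNA (500 ng per array, per the labels) was measured on Affymetrix whole-transcript mouse arrays. The values deposited by the authors, 1 per probe set and array, were taken as log2 signals from their range and made with Affymetrix Expression Console per the submitters' processing notes. They were not scaled again. The sources used here do not state the log base, background correction, summarization or normalization. Of 41345 probe sets 23521 had 1 symbol in the platform annotation; the brightest per gene was kept (22180 genes). Identifiers of the measured family members matched RefSeq (GRCm38.p6).

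PIM1 and EV, grouped by title, were fitted with limma 3.58.1 (R 4.3.3; lmFit and eBayes, no covariate, two-sided tests, Benjamini-Hochberg); the script was tested on simulated data. No detection call was used, and having 3 arrays a group limits the precision. Members and lists were chosen with earlier results of these data known. Named are all members, the other family members and up to 5 called genes per list and direction by smallest p. Marker genes, chromosome 5 neighbours, Adam10, Lrig3, Grb2, Grb7, Dusp6, Spry4, Fos, Egr1, Spry2, Egr2, Spred1, Spred2, Myc, Ccnd1, Itgb4 and Cd9 were chosen after their values were seen. Alternatives changed the variance model, scaling, brightness filter, probe set rule and block, or left out 1 array; cyclic loess and centring over all probe sets were chosen after seeing the data. Listed genes lacking a single-symbol probe set were not analysed here.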

Additional observations from a re-analysis of the deposited data

How the results depend on the processing

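Under 15 alternatives Ereg, Nrg1, Egfr, Epgn and Pim1 kept their direction and their call, and 2 listed members were higher in PIM1 in each. Over the same alternatives Ereg differed by between -1.64 and -0.98. The 3 lower members became 1 after centring over all probe sets and 1 to 3 when 1 array was left out, where Hbegf and Erbb2 were the genes that lost the call. Over all genes 2420 were lower as reported, 1572 in the fit of all probe sets, 1558 after centring over all probe sets and 1463 to 2224 without 1 array. Of the other family members 1 was lower, and 0 were among the brighter genes, where Nrg2 was not tested, or after centring over all probe sets (0 to 1 without 1 array). Ligand release genes higher in PIM1 numbered 5, 3 after quantile normalization and 3 to 5 without 1 array. Receptor inhibitors and turnover genes lower in PIM1 numbered 1, but 3 with a trended and robust variance, quantile normalization, the brighter genes or cyclic loess, 0 after centring over all probe sets and 0 to 2 without 1 array. Adaptors and kinases lower in PIM1 numbered 5, and 8 after quantile normalization or cyclic loess. The causes were not tested. With the replicate number as a block, 3218 genes were higher and 2103 lower, 2 turnover genes were lower, and Erbb2 had an adjusted p of 0.0650; the labels do not say that the numbers pair the arrays, and same-numbered PIM1 and EV arrays did not deviate together (correlations of 0.056, -0.031 and 0.009, with not every array closest to its own number). The brighter genes held 5 of the 9 members, so Btc, Tgfa, Egf and Erbb3 have no value there.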
